A study of Mus musculus with 12 samples.

Results

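Gfap, Vim, Nes, Synm, Des and Pdpn, which encode 5 cytoplasmic intermediate filament proteins and the membrane glycoprotein podoplanin, were followed in cultured primary mouse oligodendrocytes (OLs) treated with an siRNA against Egr2 (siEgr2) or with a control siRNA (siNC). The members were taken by gene symbol and make up 6 of the 56860 named genes counted. All 6 had counts, and 5 of them were among the 16600 genes that passed the filter on low counts, with Des left out. Pdpn, Gfap and Synm were lower after siEgr2 and were called, Vim and Nes were lower by less than the fold threshold, and no member was higher.

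The series held 12 RNA-seq libraries, 6 of siNC and 6 of siEgr2, all from C57BL/6J cells collected after 48 h of treatment. Cells bearing the O4 antigen had been enriched with magnetic beads from the cortex of pups at postnatal days 6 to 7 and differentiated in culture before treatment, whereas the labels name the medial prefrontal cortex as the tissue. The control was a scrambled siRNA, and the methods also refer to the Egr2 reagent as an interference plasmid. Neither the labels nor the methods say that the libraries of a group came from separate cultures or animals, so the p-values measure the spread between these libraries, which may be technical.

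Intermediate filaments are ropelike polymers that give a cell mechanical strength. Vimentin and nestin are typical of immature neural cells, and GFAP, the classical astrocyte filament, is assembled together with vimentin and rises when astrocytes become reactive. Nestin and synemin need a partner such as vimentin or desmin to form filaments, and desmin is the filament of muscle and of the mural cells of blood vessels. Podoplanin is a mucin-type glycoprotein that binds the actin linkers ezrin and moesin at the membrane, and in the brain it appears on reactive astrocytes and on cells of the meninges. Mature OLs are known for having few intermediate filaments.

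The libraries differed in depth along with treatment, since siNC libraries held between 28682946 and 39383014 counts and siEgr2 libraries between 8034251 and 16683677. The 18S ribosomal RNA gene took 0.142% to 1.05% of the counts in siNC and 10.5% to 16.5% in siEgr2. Depth, ribosomal share and treatment cannot be told apart in this design. Values are CPM, counts scaled to a common library total, after edgeR's TMM normalization, and a gene counted as called when its log2 fold change lay beyond 0.5 in either direction with an adjusted p below 0.05. Egr2, the targeted gene, had 5.35 ± 1.27 CPM in siNC and 3.77 ± 1.01 CPM in siEgr2 (SD, n = 6 each). Its log2 fold change of -0.51 was not called (adjusted p = 0.0981, edgeR), and its values overlapped between the groups, so the label of the treatment was not borne out by a called change in its target.

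The members lie on 6 chromosomes of the mouse genome build GRCm38, where GENCODE M21 places Gfap at chr11:102887336-102900912 on the minus strand, Vim at chr2:13573927-13582826 on the plus strand and Nes at chr3:87971078-87980451 on the plus strand. Synm lies at chr7:67730160-67759742 on the minus strand, Des at chr1:75360329-75368579 on the plus strand and Pdpn at chr4:143267431-143299564 on the minus strand. Because the members move in the same direction, the 250 bases before the RefSeq start of each gene (build GRCm38.p6) were read, and all 6 members matched. Each is given from 5′ to 3′ on the strand of its gene for the 2 most abundant filament genes, for nestin and for podoplanin, with letter matches to the motifs described after them in capitals, of which Gfap and Pdpn have none. The regions are chr11:102897201-102897450 for Gfap, chr2:13574061-13574310 for Vim, chr3:87970843-87971092 for Nes and chr4:143299565-143299814 for Pdpn.
Gfap: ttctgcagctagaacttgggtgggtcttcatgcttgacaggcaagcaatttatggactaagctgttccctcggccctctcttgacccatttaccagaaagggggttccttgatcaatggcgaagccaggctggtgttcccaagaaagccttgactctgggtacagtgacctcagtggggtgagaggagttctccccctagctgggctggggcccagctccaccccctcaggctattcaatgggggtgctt
Vim: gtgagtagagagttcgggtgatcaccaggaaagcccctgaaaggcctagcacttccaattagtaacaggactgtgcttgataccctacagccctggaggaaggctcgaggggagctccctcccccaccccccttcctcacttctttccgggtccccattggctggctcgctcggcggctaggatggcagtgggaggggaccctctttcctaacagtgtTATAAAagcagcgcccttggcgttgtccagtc
Nes: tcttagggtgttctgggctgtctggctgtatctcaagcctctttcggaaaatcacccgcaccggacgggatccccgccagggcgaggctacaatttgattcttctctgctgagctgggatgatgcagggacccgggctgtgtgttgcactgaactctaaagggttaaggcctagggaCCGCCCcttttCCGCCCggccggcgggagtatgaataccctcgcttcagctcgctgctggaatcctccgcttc
Pdpn: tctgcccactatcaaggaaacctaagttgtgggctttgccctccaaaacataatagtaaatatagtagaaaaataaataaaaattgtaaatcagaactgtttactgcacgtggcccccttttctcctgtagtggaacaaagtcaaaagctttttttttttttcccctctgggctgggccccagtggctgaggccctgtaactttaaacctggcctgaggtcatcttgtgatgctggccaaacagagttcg

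The Egr letters GCGNGGGCG, searched on both strands as were all motifs here, were found in 0 of these 6 windows and in 4.70% of the 32851 mouse promoter windows of the same length. The Sp1 letters GGGCGG were found in 2 members and in 32.7% of all windows. They lie on the opposite strand of Nes, from -73 to -68 and from -62 to -57 counted from the start, and on the opposite strand of Des, from -87 to -82 and from -69 to -64. Vim alone among the members held TATAAA, the letters of a TATA box, from -32 to -27, as did 12.4% of all windows. The STAT letters TTCNNNGAA and the AP-1 letters TGANTCA were in 0 members, and in 7.02% and 6.75% of all windows. The members differed in base composition, from 43.2% G and C in Pdpn to 70% in Synm, around a median of 52.4% over all windows. These matches describe letters in these windows and say nothing of binding.

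Per kilobase of annotated exon, Gfap ranked 22nd among the 15862 tested genes with a GENCODE length. Its level in siNC was 1133 ± 48.6 CPM per kb (SD, n = 6), Vim followed at 341 ± 16.7 and Nes at 82.2 ± 9.90. Pdpn stood at 47.6 ± 2.94 CPM per kb, Synm at 0.828 ± 0.0878 and Des at 0.197 ± 0.0939. In either group, no library of one gene overlapped any library of its neighbor in this order. The same order held in siEgr2, from 769 ± 36.1 CPM per kb for Gfap to 0.0192 ± 0.0310 for Des. The ranks by mean level over both groups were 79 for Vim, 505 for Nes, 1254 for Pdpn and 13480 for Synm, so the members span most of the range of expressed genes.

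**Figure D1:**
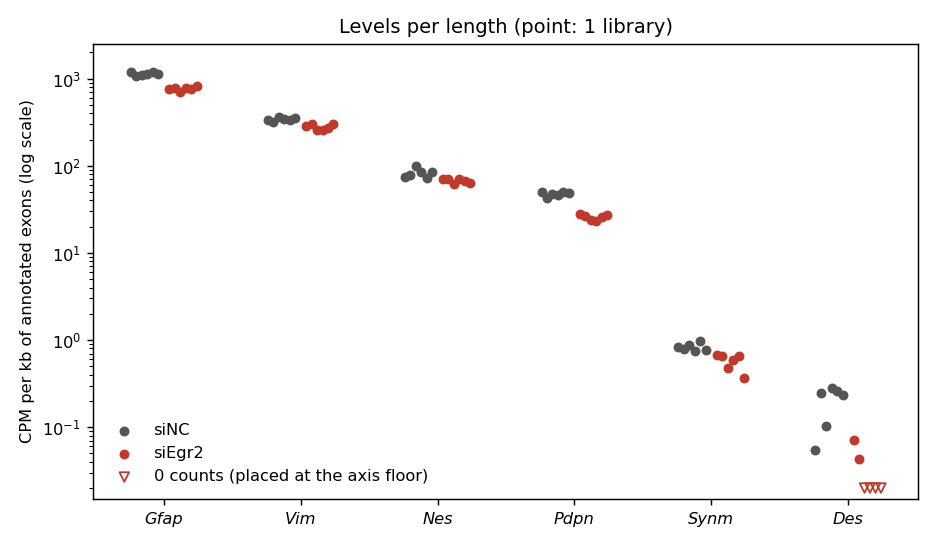
Level of each member in CPM per kilobase of annotated exons, on a log axis, with 1 point per library (6 siNC in grey, 6 siEgr2 in red). Gfap lies near 1133 in siNC and Des near 0.197, and triangles mark the 4 siEgr2 libraries in which Des had 0 counts and which have no place on a log axis.

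Gfap, the main filament of astrocytes, was the most abundant member and was called lower. Its lowest, median and highest siNC libraries had 4539, 4751 and 5055 CPM, and the siEgr2 libraries had 2997, 3243 and 3468 CPM. The groups did not overlap, and the highest siEgr2 library stayed far under the lowest siNC library. The mean fell by 32.1%, with a log2 fold change of -0.56 (SE 0.035, 95% interval -0.63 to -0.49, adjusted p = 2.25e-08, edgeR's quasi-likelihood test). The interval reaches to the near side of the fold threshold of 0.5, and a test of whether the change exceeds that threshold (glmTreat) was not passed (adjusted p = 0.401).

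Vim, the filament partner that GFAP, nestin and synemin share in glia, was lower by a smaller amount. The siNC libraries had 1492, 1617 and 1730 CPM at the lowest, median and highest, and the siEgr2 libraries had 1214, 1330 and 1429 CPM. All siEgr2 libraries thus lay below all siNC libraries, although the highest of one group came close to the lowest of the other. The mean in siEgr2 was 0.820 of that in siNC, the log2 fold change was -0.29 (SE 0.045, adjusted p = 2.40e-04, edgeR), and the change was not called because of its size.

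Nes, the large filament protein of neural progenitors, had a decrease like that of Vim. The siNC libraries had 461, 524 and 637 CPM and the siEgr2 libraries 393, 437 and 452 CPM at the lowest, median and highest. The groups did not overlap, with a gap of under 10 CPM, and the spread within siNC (SD 63.5) was wider than within siEgr2 (SD 25.4). The log2 fold change was -0.30 (SE 0.069, adjusted p = 0.00655, edgeR), under the fold threshold.

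Synm encodes synemin, which links vimentin or desmin filaments to the cell's anchoring sites. It had few reads, between 201 and 252 in the siNC libraries and between 30 and 79 in the siEgr2 libraries. The siNC libraries had 5.88, 6.40 and 7.75 CPM and the siEgr2 libraries 2.92, 4.96 and 5.31 CPM at the lowest, median and highest. The groups did not overlap, and siEgr2 replicate 6 was the lowest. The log2 fold change of -0.53 (SE 0.153, adjusted p = 0.0213, edgeR) was called, and the call was lost without siNC replicate 5 (-0.48, adjusted p = 0.0551), without siEgr2 replicate 3 (-0.49) and without siEgr2 replicate 6 (-0.44). Synm shares 84 exon bases with Ttc23 on the opposite strand, which had 25 to 270 counts per library, and the sources used here do not say whether counting used strand.

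Des, the filament of muscle and mural cells, was close to the limit of detection and was not tested with all genes. It had 7 to 37 counts in each siNC library, 4 and 2 counts in siEgr2 replicates 1 and 2, and 0 in the other 4 siEgr2 libraries. The siNC values ran from 0.203 to 1.05 CPM with a median of 0.901, and the highest siEgr2 value of 0.269 CPM lay above the lowest siNC value. A count of 0 allows up to 3 counts, or 0.185 to 0.384 CPM in those 4 libraries, a range that takes in the lowest siNC value and lies under the siNC median. Over all libraries, log2 of CPM plus 0.5 was lower by 1.08 in siEgr2 (two-sided exact permutation test, p = 0.00433, n = 6 each), a value that depends on the 0.5 added. With no filter on low counts, all 12 libraries gave a log2 fold change of -3.19 (adjusted p = 0.00775, edgeR), whose size depends on edgeR's prior count.

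Pdpn, the podoplanin gene, had the largest decrease of the 5 members tested. Its siNC libraries had 77.2, 87.5 and 91.5 CPM at the lowest, median and highest, and its siEgr2 libraries 42.5, 47.2 and 51.2 CPM. A wide gap separated the groups, while the spread within each was small (SD 5.34 and 3.39). The mean fell by 46.0%, with a log2 fold change of -0.89 (SE 0.059, 95% interval -1.01 to -0.76, adjusted p = 4.33e-08, edgeR). Pdpn was the only member whose change also exceeded the threshold of 0.5 by glmTreat (adjusted p = 1.50e-04), and 3.03% of all tested genes had a lower log2 fold change. Its interval did not overlap that of Gfap; the difference between these intervals was not tested as such.

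**Figure D2:**
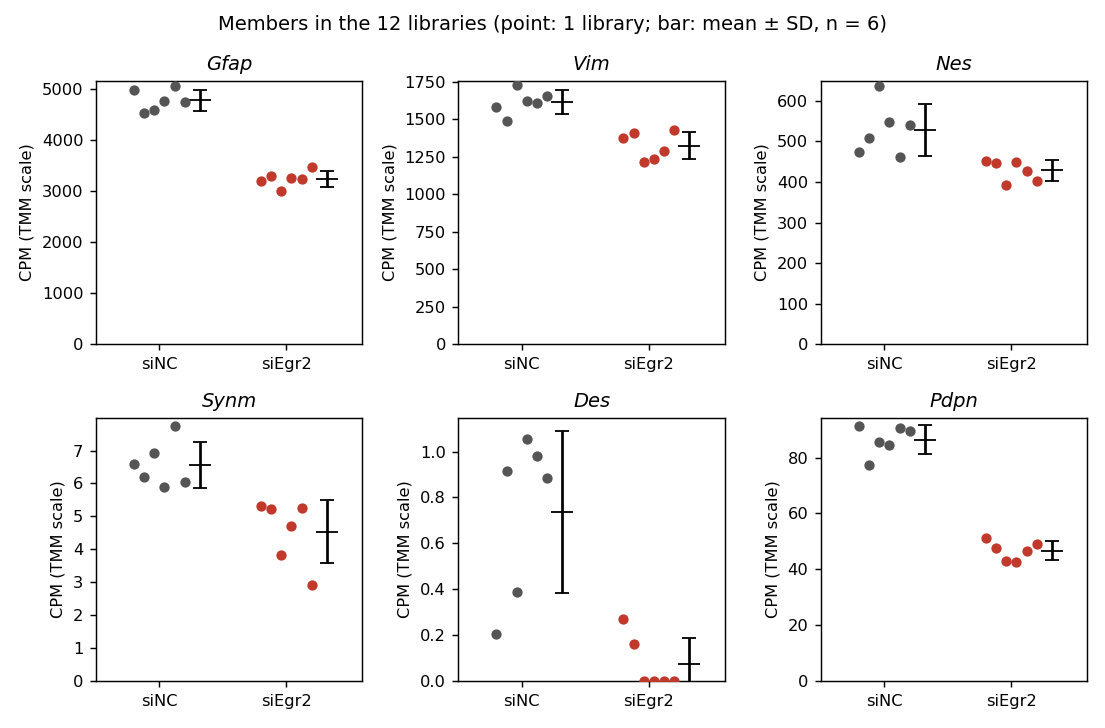
CPM of each member in every library, with a separate axis from 0 for each gene, 1 point per library in replicate order, and the mean ± SD of 6 libraries beside the points. All siEgr2 points lie below all siNC points for each gene but Des, where the highest siEgr2 library (0.269 CPM) lies above the lowest siNC library (0.203 CPM).

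Of the 5 members tested, 3 were called lower, where 5.08% of all tested genes were called lower, and 0 were called higher, where 2.63% were. All 5 passed the adjusted p lower, as did 1877 of the 16600 genes tested, where 1423 passed it higher. Each of the 5 had every siEgr2 library below every siNC library, a pattern seen in 7% of tested genes, and none showed the opposite pattern, which 4.15% showed (two-sided exact permutation test for each member, p = 0.00216, which is the lowest value this design can give). The median log2 fold change of the 5 was -0.53, beside 0.0046 over all genes tested. With scaling to library size alone, the median of all genes moved to -0.18 and the members moved with it, Gfap to -0.74 and Pdpn to -1.07, with Vim at -0.47 and Nes at -0.48. Together the 6 members took 0.711% to 0.770% of all counts in the siNC libraries and 0.451% to 0.487% in the siEgr2 libraries.

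**Figure D3:**
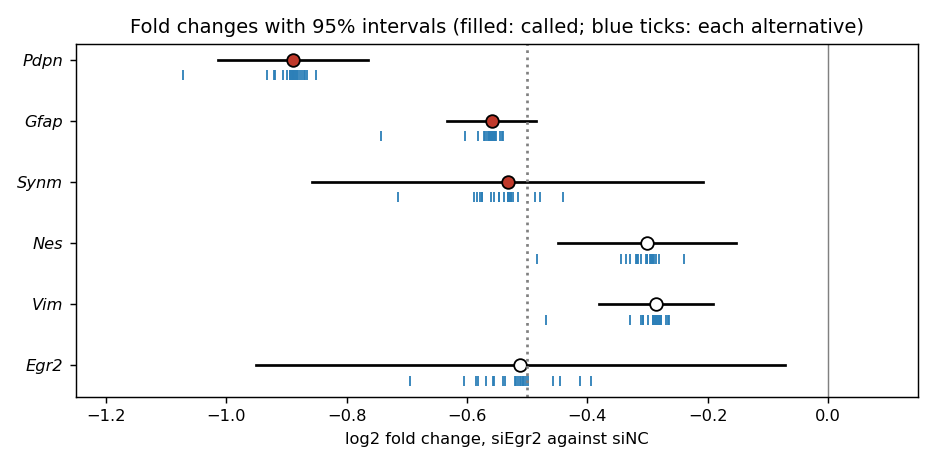
The log2 fold change of the 5 tested members and of Egr2, siEgr2 against siNC, with 95% intervals as black lines, red fill where the gene was called, a dotted line at the threshold of -0.5, and a blue tick for the value under each alternative processing. Pdpn (-0.89) lies farthest from 0, the ticks of Synm cross the threshold, and no tick lies above 0.

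The make-up of the filament pool was compared through each member's share of the 5 filament genes per kilobase. Their summed level was 1557 ± 47.7 CPM per kb in siNC and 1115 ± 53.2 in siEgr2 (SD, n = 6 each). Gfap made up 72.8% ± 1.61 of the sum in siNC and 68.9% ± 0.845 in siEgr2, and its highest siEgr2 library (70.0%) lay under its lowest siNC library (70.1%). The share of Vim was 21.0% to 23.5% in siNC and 23.7% to 25.9% in siEgr2, again without overlap. Nes made up 5.29% ± 0.687 and 5.99% ± 0.375, with overlap. The pool thus held less Gfap and more Vim in proportion, with differences between the means larger than the SD of either group, although the nearest libraries of the groups lay close together.

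Ratios to Vim within a library depend little on the scaling between libraries where a gene is abundant, and for Synm and Des they depend on the 0.5 added to the CPM. The ratios of the 5 other members were tested with the exact permutation test and Benjamini-Hochberg adjustment over these 5. The ratio of Gfap to Vim was 2.65 to 3.15 in siNC and 2.33 to 2.63 in siEgr2, a log2 difference of -0.27 (SE 0.047, exact permutation adjusted p = 0.00541). The ratio of Pdpn to Vim was 0.0496 to 0.0581 in siNC and 0.0341 to 0.0376 in siEgr2, a log2 difference of -0.60 (SE 0.040, exact permutation adjusted p = 0.00541). Gfap and Pdpn therefore decreased more than Vim did. The ratio of Nes to Vim was 0.286 to 0.368 in siNC and 0.282 to 0.363 in siEgr2, with a log2 difference of -0.0071 (SE 0.072, exact permutation p = 0.929). That of Synm differed by -0.22 (SE 0.148, exact permutation adjusted p = 0.208), with siEgr2 replicate 6 far below the rest. It was -0.091 without that library and -0.11 with 2 in place of 0.5 added. Neither Nes nor Synm could be told from Vim in its decrease. For Des the difference was -0.79 (exact permutation adjusted p = 0.0216), with overlapping groups, and it shrank to -0.11 (exact permutation p = 0.288) with 2 in place of 0.5 added to the CPM.

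**Figure D4:**
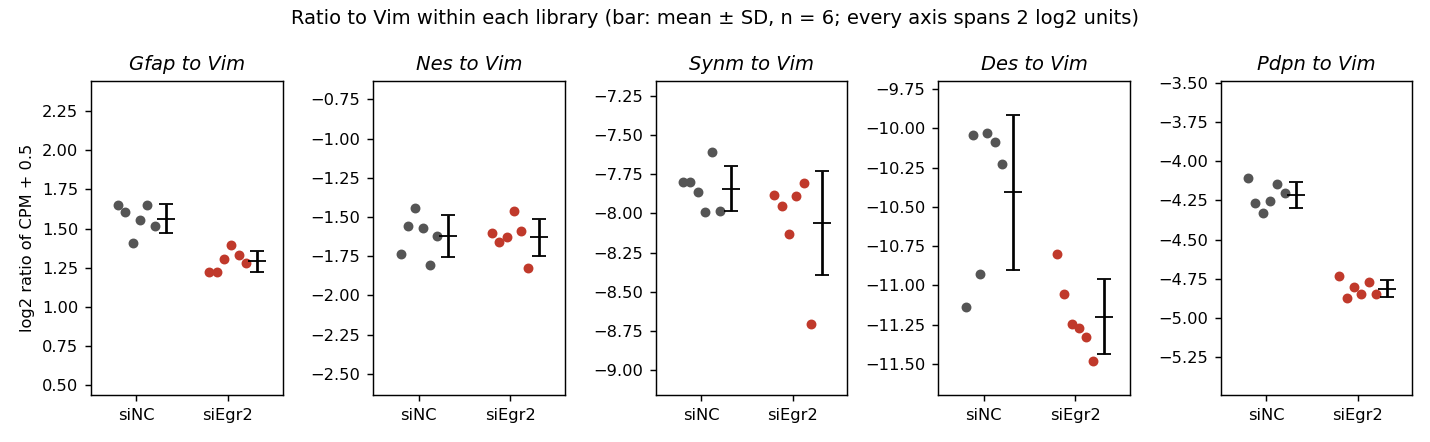
The log2 ratio of each other member to Vim within each library, after 0.5 is added to the CPM, with 1 point per library, the mean ± SD of 6 libraries, and axes that span the same range of 2 log2 units. Gfap and Pdpn are separated between the groups, Nes overlaps throughout, and siEgr2 replicate 6 stands low for Synm.

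Within the groups, the members did not vary as 1 block. After each group's mean was taken off, the correlation of log2 CPM over the 12 libraries was 0.72 between Vim and Pdpn, 0.65 between Gfap and Pdpn and 0.46 between Gfap and Vim. Within siNC and siEgr2 taken alone, the last value was 0.0085 and 0.76. The correlation over the 12 libraries was -0.36 between Gfap and Nes, where the groups differed in sign (-0.72 in siNC and 0.21 in siEgr2, 6 libraries each). The genes most like each member by this measure, among the 9066 genes whose log2 CPM averaged 4 or more, which leaves out Synm and Des, were Usp11 (r = 0.93), Oplah and Miip for Gfap, and Rap1gap2 (0.90), Gm3571 and Dhx38 for Pdpn. They were Uqcrc1 (0.91), Tubb2a and Gm2574 for Vim, Casc3 (0.88), Hdgf and Coa5 for Nes, and Usf3 (0.91), Acer3 and Cog7 for Synm. The libraries share depth and composition, and these values are descriptions without a test.

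Other genes of the filament system were read from lists by role. Over all tested genes, 5.08% were called lower and 2.63% higher. Of 17 other intermediate filament genes, 9 were tested, 0 were called higher and 1 was called lower, around a median log2 fold change of -0.066. The called gene was Sync, which encodes the desmin-binding filament protein syncoilin, with 5.09 ± 0.91 CPM in siNC and 2.81 ± 0.52 in siEgr2 (log2 fold change -0.85, adjusted p = 0.00238, edgeR). Lmnb1, a nuclear lamin and the most abundant of the list, was higher by 0.31 on the log2 scale (adjusted p = 2.51e-05), under the fold threshold. The keratin genes Krt5 and Krt14 had 0 counts in every library.

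Among 14 tested linkers and chaperones of filaments, 4 were called lower and 0 higher, around a median of -0.22. Ppl, which encodes the filament linker periplakin, went from 7.81 ± 1.52 to 2.09 ± 0.94 CPM (log2 fold change -1.89). The others were the chaperone partners Bag3 (-0.80) and Hspb8 (-0.60) and the small heat shock gene Hspb1 (-0.58). Dst, a large linker and the most abundant of the list, had a log2 fold change of -0.087 that did not pass (adjusted p = 0.217). Of 11 kinases and phosphatases that act on filament proteins, 2 were called higher and 0 lower, around a median of 0.054. They were Aurkb (0.69) and Cdk1 (0.57), mitotic kinases that phosphorylate vimentin in dividing cells.

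Some partners of podoplanin were lower as well. Of 7 tested, 3 were called lower and 0 higher, around a median of -0.28, where 5.08% of all tested genes were called lower. The sum of the list was 1806 to 2011 CPM in siNC and 1710 to 1826 CPM in siEgr2, which overlapped. Ezr, which encodes the actin linker ezrin, went from 180 ± 8.41 to 109 ± 6.85 CPM (log2 fold change -0.73, adjusted p = 3.57e-08), and Msn, for moesin, from 327 ± 24.2 to 225 ± 12.4 CPM (-0.54). Cd44, the hyaluronan receptor that podoplanin binds, went from 113 ± 15.5 to 66.6 ± 9.55 CPM (-0.76). Cd9, the tetraspanin partner and the most abundant of the list, had a log2 fold change of 0.12 that did not pass (adjusted p = 0.145). Clec1b, the platelet receptor for podoplanin, was not tested and had a mean of 0.0218 CPM in siNC and 0 in siEgr2.

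Of 15 transcription factor genes known to act on filament genes, 1 was called lower and 0 higher, around a median of -0.13. The called gene was Hes1, a Notch target (-0.75, adjusted p = 0.0149). Sox2, the most abundant of the list, did not pass (0.081). Stat3 and Sox9, known activators of Gfap, were picked out after their values were seen. Their log2 fold changes were -0.13 (edgeR, adjusted p = 0.0154) and -0.40 (adjusted p = 2.10e-04), both under the fold threshold. Of the whole list, 3 genes passed the adjusted p lower and 1 higher. Nfia (-0.039), Nfib (-0.14) and Nfix (-0.43), of the same list, did not pass it.

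The labelled cell type was checked against markers. The 14 OL markers were all tested and 0 were called in either direction. By the adjusted p alone, 3 of them passed higher and 5 lower, under the fold threshold. Their summed level was 9978 to 10851 CPM in siNC and 9737 to 10115 CPM in siEgr2. The 12 astrocyte markers, which leave out Gfap, were also all above the filter, so transcripts typical of astrocytes were present beside those of OLs. Their sum was 4271 to 4550 CPM in siNC and 2653 to 2953 CPM in siEgr2, with 5 called lower and 0 higher and a median of -0.52. Among them were the glutamate transporter gene Slc1a3 (-0.85), the water channel gene Aqp4 (-0.80), Aldh1l1 (-0.74) and the bicarbonate transporter gene Slc4a4 (-0.68). Of the same list, Gja1 (-0.60), Gjb6 (-0.44), Fgfr3 (-0.11) and S100b (-0.018) did not pass the adjusted p. In bulk RNA, fewer astrocytes and less RNA of these genes per astrocyte cannot be told apart, and their part in the decrease of the members was not tested.

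Of 18 reactive glia genes, all tested, 13 were called lower and 1 higher, around a median of -0.91, and their sum was 3692 to 3860 CPM in siNC and 2467 to 2653 CPM in siEgr2. Lcn2, a secreted iron carrier protein of reactive astrocytes, went from 599 ± 50.7 to 138 ± 13.6 CPM (-2.12), and Steap4 (-2.08), Ptx3 (-1.66) and Cxcl10 (-1.64) were called as well. Serpina3n, the most abundant of the list, did not pass (-0.046, adjusted p = 0.309), and Emp1, named after its value was seen, was higher (1.61). Hspb1 and Cd44 stand in this list as well as in those above.

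Neural stem cell markers, which accompany nestin, had 4 of 8 genes called lower and 0 higher, with a median of -0.45 and sums of 1652 to 1750 CPM in siNC and 1265 to 1460 CPM in siEgr2. The called genes were Sox1 (-0.99), Egfr (-0.82), the fatty acid binding protein gene Fabp7 (-0.57), which was the most abundant of the list, and Prom1 (-0.53). Fibroblast and mural cell markers, which accompany desmin and podoplanin, had 6 of 11 tested genes called lower and 0 higher, with a median of -0.56 and sums of 1072 to 1609 CPM and 1012 to 1185 CPM, which overlapped. Among these, Cnn1, a smooth muscle gene, went from 7.63 ± 1.11 to 1.99 ± 1.56 CPM (-1.92), and Notch3 (-0.93), the pericyte gene Rgs5 (-0.78) and the actin-binding protein gene Tagln (-0.63) were called lower as well, while Col1a1, the most abundant, did not pass (-0.16). The mural markers Kcnj8, Myh11 and Abcc9 were too low to be tested. Of the 7 myogenic markers, 0 were tested and 5 were at 0 in all libraries. OL precursor markers had 3 of 8 genes called higher, 1 called lower and a median of 0.47. The higher genes were Pcdh15 (0.70), Cspg4 (0.56) and the growth factor receptor gene Pdgfra (0.56), and the lower one was Matn4 (-0.65). Ptprz1, the most abundant of that list, was higher by 0.15 (adjusted p = 0.00822), under the fold threshold. Endothelial, microglia, neuron and ependymal markers had 1 of 4, 0 of 4, 1 of 7 and 0 of 4 tested genes called lower and none higher. Cldn5 of the endothelial list and Aif1 of the microglia list were at 0, but other genes of both lists had counts. In siNC and siEgr2, Kdr averaged 25.6 and 28.2 CPM and Cdh5 2.77 and 2.91 CPM. Tmem119 averaged 1.43 and 1.44 CPM and P2ry12 0.903 and 1.26 CPM. The part of these cells in the values of the members was not tested.

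**Figure D5:**
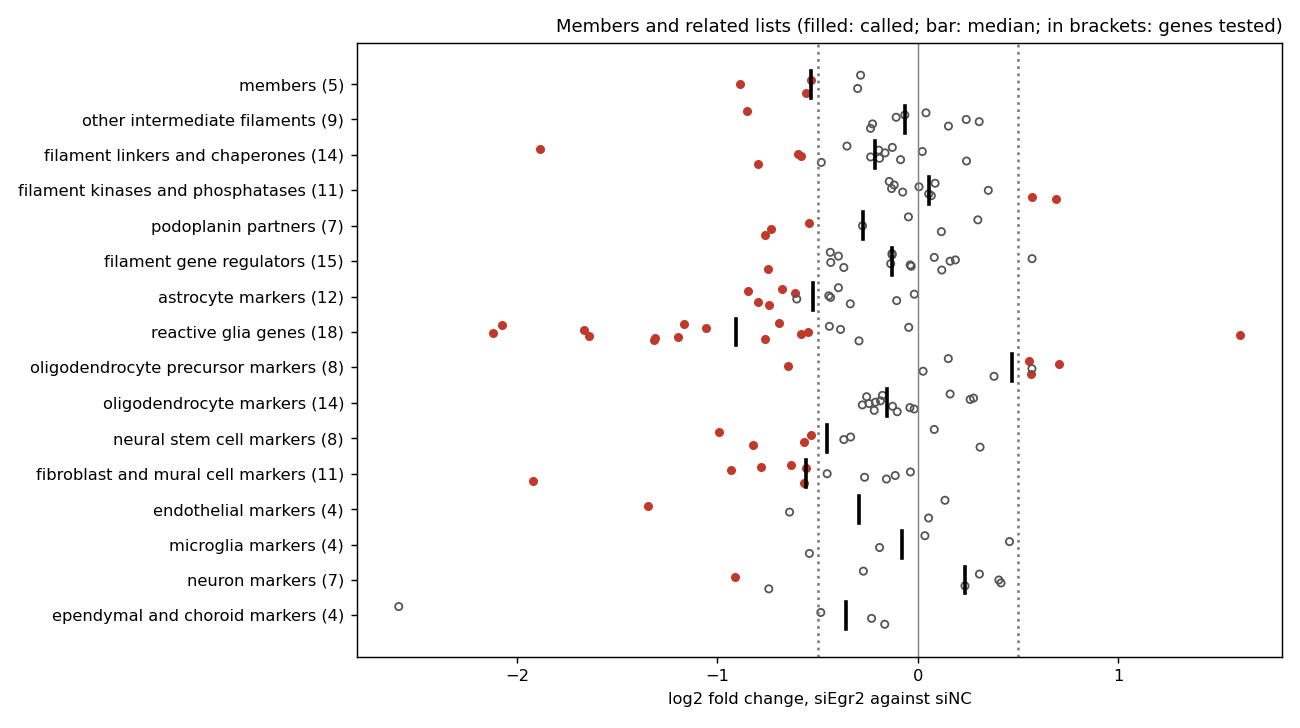
The log2 fold change of each tested gene, siEgr2 against siNC, in the members and the related lists, with filled points for called genes, a black bar at each list's median, dotted lines at the thresholds of -0.5 and 0.5, and the number of tested genes in brackets. The members run from -0.29 (Vim) to -0.89 (Pdpn), and their median of -0.53 is the value of Synm, which had few reads. List medians were -0.52 for astrocyte, -0.56 for fibroblast and mural and -0.45 for neural stem cell markers. They were -0.91 for reactive glia genes and -0.066 for other intermediate filaments.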

How the data were processed

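RNA-seq was carried out on total RNA of 12 libraries of primary OLs. The authors deposited raw counts per gene symbol, without normalization. The submitters' processing notes name the genome build mm10, and the aligner, counting program and use of strand are not given in the sources used here. The 1 row without a gene name held no counts and was left out. Groups and replicate numbers came from the labels.

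The filter on low counts was filterByExpr of edgeR 4.0.16 (R 4.3.3), the scaling was TMM, and the groups were compared with the robust quasi-likelihood test, without covariates, adjusting p over 16600 genes by Benjamini-Hochberg. Calls needed a log2 fold change beyond 0.5 in either direction and an adjusted p below 0.05. Single values were compared by the two-sided exact permutation test over all 924 assignments (scipy 1.17.1), on log2 of CPM plus 0.5. Depth limits Synm and Des, and counting floors cover counting error only. Over 30 pairs of libraries within groups, chi-square per gene was 7.54 to 42.2, so none is a copy of another. The procedure was tested on simulated data.

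The members and gene lists were chosen with earlier results of these data known. Genes named besides the members were Egr2, the 3 genes most like each tested member, and of each list at most the 4 called genes of largest absolute change and the most abundant one. Stat3, Sox9, Emp1 and the genes named as being at 0, near 0 or too low to be tested were named after their values were seen. So were Nfia, Nfib, Nfix, Gja1, Gjb6, Fgfr3, S100b, Kdr, Cdh5, Tmem119 and P2ry12. The marker lists of endothelial cells, microglia, neurons, ependymal and myogenic cells are given by counts of genes called or at 0, without fold changes of single genes. Levels of single genes are given for some endothelial and microglia markers. Lengths and positions came from GENCODE M21 (GRCm38) and promoter windows from RefSeq. Alternatives were RLE, upper-quartile and library-size scaling, DESeq2 1.42.0, limma-voom (limma 3.58.1), glmTreat, other filters and thresholds, thinning, structural RNA genes left out, a replicate block and leaving out each library.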

Additional observations from a re-analysis of the deposited data

Results flagged for a closer look

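A library was set apart when its gap to the nearest library of its group, over the range of the group, passed Dixon's 95% critical value for 6 values. Among 28 groups of 6 values examined, chance gives about 1.4 such cases, and 2 were found. The total of siNC replicate 6 was 39383014 counts, where the other siNC libraries had 28682946 to 32460116. The log2 ratio of Synm to Vim in siEgr2 replicate 6 was -8.71, where the other siEgr2 libraries had -8.13 to -7.81, and Synm had its lowest value there, 2.92 CPM.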

How the results depend on the processing

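Every alternative that fitted Gfap, Vim, Nes, Synm or Pdpn gave a value below 0, and members called higher stayed at 0. The log2 fold change ranged over all alternatives from -0.74 to -0.54 for Gfap, -0.47 to -0.26 for Vim, -0.48 to -0.24 for Nes, -0.71 to -0.44 for Synm and -1.07 to -0.85 for Pdpn. Leaving out each library in turn gave -0.59 to -0.44 for Synm (adjusted p up to 0.0551), 2 to 4 members called lower and 1114 to 1339 genes called, and -0.044 to 0.032 for the log2 ratio of Nes to Vim, whose sign is therefore not settled. With glmTreat, Gfap (-0.56, adjusted p = 0.401) and Synm (-0.53, adjusted p = 1) were no longer called, which left 1 member and 237 genes called. With the adjusted p alone, 5 members and 3300 genes (1423 higher, 1877 lower) were called, and with a log2 fold change over 1, 0 members and 373 genes. Scaling to library size alone called 1974 genes, 237 higher and 1737 lower, beside 1281 (437 higher, 844 lower), and brought Egr2 to -0.70 (adjusted p = 0.0144).

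Against the mean of the other members in place of Vim, the log2 ratio differed by 0.051 for Gfap (exact permutation p = 0.513), 0.37 for Nes (0.00649) and 0.11 for Synm (0.424), which reversed, and by -0.34 for Pdpn (0.00433) and -0.57 for Des (0.0368), which did not. That mean contains Des for all but Des itself. With 2 added, the ratio to Vim was -0.11 for both Des and Synm. Per kilobase of the longest transcript, Gfap had 1804 and 1224 CPM in siNC and siEgr2, and Vim had 552 and 453. Des did not pass the filter with all 12 libraries. It passed only in the 6 fits without a siEgr2 library, through its siNC counts, so its calls there (-4.27 to -2.84), which enter the 2 to 4 members called lower, are no support for a decrease.

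Same-numbered libraries did not deviate together (r = -0.039 to 0.042 over 6 pairs). With the replicate number as a block, 1124 genes (349 higher, 775 lower) were called, no tested member gained or lost its call, and the ratio of Des to Vim, still -0.79, had an exact permutation p of 0.0938. Low depth limits Synm and Des.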
